A study of Mus musculus with 12 samples.

Results

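The 10 genes described here are the core of the mammalian circadian clock and its nearest outputs: the activators Arntl (also called Bmal1), Clock and Npas2, the repressors Per1, Per2, Per3, Cry1 and Cry2, and the output factors Dbp and Tef. They were chosen by name, as a list of known clock genes mapped to mouse Ensembl identifiers, by a rule that uses no measured value, and make up 10 of the 53715 genes in the count table. All 10 were among the 17779 genes that passed the filter on low counts (more than 10 counts in any library).

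RNA was sequenced from 12 libraries of C57BL/6JOlaHsd mouse liver cells, 4 biological replicates in each of 3 groups. Hepatoblasts were Dlk1+ progenitors, isolated with magnetic beads from E14.5 embryonic livers that were pooled for each isolation, and lysed at once. Diff. hepatocytes were hepatoblasts of the same embryonic age that had been grown for 4 days on fibronectin in differentiation medium, which contained serum, insulin and the synthetic glucocorticoid dexamethasone. Mature hepatocytes came from male mice of 8 to 12 weeks by collagenase perfusion and were also lysed at once. No group carried a genetic change. The mice lived in a cycle of 12 h light and 12 h dark with food always present, and the hour at which each mouse was killed or each culture was lysed is not given in the sources used here. Total counts were between 19581551 and 25216977 per library, and levels are given as CPM, counts relative to the size of the library after TMM scaling. The comparisons asked how far the cultured cells resembled the cells they came from and the adult cells.

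In the clock of mammalian cells, ARNTL pairs with CLOCK or NPAS2, binds E-box sequences and switches on the Per and Cry genes, and the PER and CRY proteins then block the pair that made them. The same pair drives Dbp and the nuclear receptor genes Nr1d1 and Nr1d2, whose proteins repress Arntl, so that Arntl and Dbp are classically abundant at opposite times of day in the liver. Serum and glucocorticoids can set the phase of this cycle in cultured cells, and fetal liver is known for weak rhythms compared with adult liver.

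Promoter sequences were examined first, because E-boxes, D-boxes and ROR elements are the sites through which these genes act on each other. RefSeq promoters on GRCm38.p6, which run from 250 bases before to 50 bases after a start site, were at hand for 9 of the 10 genes (all except Per2). The E-box CACGTG, which reads the same on both strands, was present in 3 of the 9 genes (Per1, Cry1 and Tef, the last with 1 at each of its 2 start sites), whereas 8.09% of all 27025 genes with a promoter in the table held one. The variant E-box CACGTT, sought on both strands, was present in Cry1 and Cry2, against 5.44% of all genes. The D-box TTATGTAA, sought on both strands and bound by DBP, TEF and their rival NFIL3, occurred in Per3 alone, where it occurred 2 times, against 1.11% of all genes. The core TAGGTCA of the ROR element, sought on both strands and bound by ROR and REV-ERB receptors, lay 30 bases after one of the start sites of Arntl and in none of the other 8 genes, against 2.97% of all genes. Neither the D-box TTACGTAA (0.126% of all genes), the cAMP response element TGACGTCA (2.03%) nor the palindromic glucocorticoid response element (0.0111%) was found in these 9 genes, which says only that those letters are not in these windows. TGACG, which is contained in the cAMP response element and was sought on both strands, was in 3 of the 9 genes (Per1, Cry1 and Cry2) and in 23.0% of all genes. A match is a description of the sequence and was not tested for binding.

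The matched stretches are printed 5′ to 3′ on the strand of the gene, with the matched letters in capitals, because their order and spacing show what the genes share. For Cry1 (chr10:85185065-85185304, minus strand) the capitals mark a variant E-box, which reads AACGTG on this strand, followed by an E-box whose first base is at position -60 from the start site.
Cry1: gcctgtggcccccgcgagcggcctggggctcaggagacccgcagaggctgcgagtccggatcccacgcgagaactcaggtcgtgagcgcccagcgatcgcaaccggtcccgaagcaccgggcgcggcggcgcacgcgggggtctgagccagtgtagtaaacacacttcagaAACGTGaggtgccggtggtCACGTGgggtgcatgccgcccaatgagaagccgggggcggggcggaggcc
For Per1 (chr11:69098699-69098947, plus strand) the capitals mark the E-box, which begins at position -166 from the start site.
Per1: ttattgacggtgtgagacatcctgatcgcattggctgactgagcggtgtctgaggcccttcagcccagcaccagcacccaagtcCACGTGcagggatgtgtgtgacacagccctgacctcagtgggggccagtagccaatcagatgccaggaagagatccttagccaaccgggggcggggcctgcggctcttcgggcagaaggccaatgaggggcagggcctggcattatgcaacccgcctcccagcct
For Tef the window of 30 bases around the E-box of its upstream start site (chr15:81802534-81802563, plus strand) is given.
Tef: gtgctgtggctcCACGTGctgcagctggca
For Per3 (chr4:151044666-151044915, minus strand) the capitals mark the pair of D-boxes, which begin at positions -205 and -158 from the start site.
Per3: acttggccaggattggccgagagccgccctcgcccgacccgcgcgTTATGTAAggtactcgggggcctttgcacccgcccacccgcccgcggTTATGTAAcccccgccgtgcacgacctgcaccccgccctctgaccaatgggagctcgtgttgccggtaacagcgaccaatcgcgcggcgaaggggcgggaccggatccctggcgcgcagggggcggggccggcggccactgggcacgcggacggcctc
For Arntl the window of 30 bases around the core of the ROR element (chr7:113207529-113207558, plus strand) is given.
Arntl: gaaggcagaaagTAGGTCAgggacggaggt

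Some libraries stood apart before any clock gene was considered. Replicate 1 of the hepatoblasts had a summed level of 2512 CPM over 10 erythroid markers against 304 to 501 CPM in the other hepatoblast libraries, and 345 CPM over 9 macrophage markers against 81.1 to 98.6 CPM. In mature hepatocytes the same macrophage markers summed to 229, 135, 255 and 133 CPM in replicates 1 to 4, and 8 endothelial markers to 236, 131, 237 and 171 CPM. In the hepatoblast, Diff. and mature libraries, 7 markers of adult hepatocytes summed to 42.2 to 65.0, 6164 to 7351 and 24164 to 31955 CPM. Of these 7, 6 were called lower in Diff. than in mature hepatocytes (15.6% of all genes tested), and Cps1 was not (-0.04). In the same order 7 fetal markers, such as Afp, summed to 41896 to 70134, 37869 to 44186 and 66.2 to 111 CPM. Another 7 hepatocyte markers, such as Alb, summed to 36872 to 62239, 52933 to 61523 and 109952 to 157425 CPM. Hepatoblast and Diff. libraries overlapped in the fetal sums and in these. In the fetal sums the overlap rested on hepatoblast replicate 1 alone, at 41896 CPM. Of the 7 fetal markers 5 were called lower in Diff. hepatocytes than in hepatoblasts and none higher (14% and 14.9% of all genes tested). Their median log2 fold change was -1.72. Markers of other cell types were also higher in Diff. hepatocytes. There 6 bile duct markers summed to 92.7 to 232 CPM (26.7 to 35.7 CPM in the hepatoblast and 37.3 to 65.9 CPM in the mature libraries), with 3 of them called higher than in hepatoblasts, namely Krt7, Krt19 and Epcam. Likewise 9 mesenchymal markers summed to 1322 to 3282 CPM (779 to 1392 CPM and 59.4 to 76.5 CPM), with 4 called higher than in hepatoblasts, Acta2 among them (4.50 on the log2 scale). None of the bile duct or mesenchymal markers was called lower than in hepatoblasts, and Sox9 (0.01) and Pdgfrb (-0.45) were not called. Of all genes tested, 14.9% were called higher in that comparison. Diff. replicate 1 had the highest bile duct and mesenchymal sums of its group. It was also highest in the macrophage markers (151 CPM against 24.2 to 72.8 CPM). In bulk libraries like these, fewer cells of a type and less RNA per cell cannot be told apart.

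The clearest feature of the clock genes was in mature hepatocytes, whose 4 libraries fell into opposite states. Replicates 1 and 3 were high in the activators and low in the output genes, and replicates 2 and 4 were the reverse. In all 10 genes the highest pair of libraries was either replicates 1 and 3 (Arntl, Clock, Npas2 and Cry1) or replicates 2 and 4 (Per1, Per2, Per3, Cry2, Dbp and Tef). Of all 17779 genes tested, 35.7% divided the libraries of this group in the same way. In hepatoblasts the division that most clock genes shared held for 6 of the 10 (background 49.4%), and in Diff. hepatocytes for 5 (31.7% or 41.3% for the divisions concerned).

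**Figure D1:**
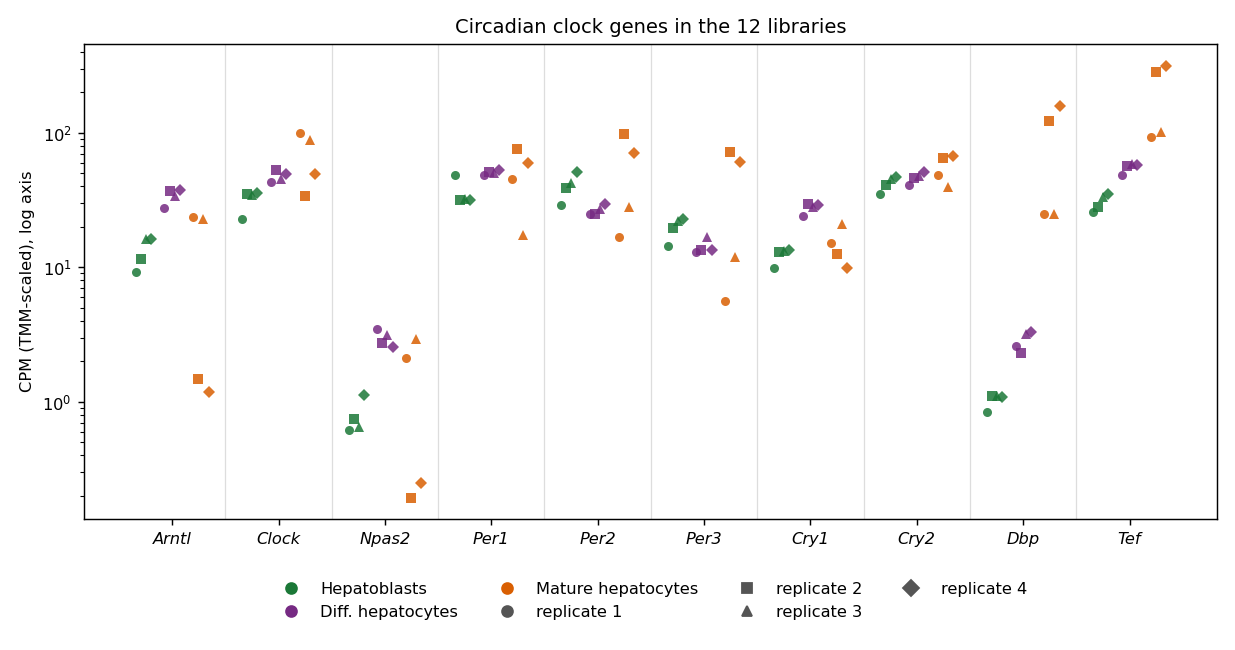
CPM of the 10 clock genes on a log axis, one point per library (colour for the group, shape for the replicate). In mature hepatocytes Arntl ran from 1.18 to 23.8 CPM and Dbp from 24.9 to 159 CPM, with replicates 2 and 4 lowest in Arntl and highest in Dbp, while the libraries of the other groups lay close together.

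Arntl (ENSMUSG00000055116, chr7:113207465-113314126 on GRCm38, plus strand), the obligate partner of the activator pair, was at 23.8, 1.48, 22.8 and 1.18 CPM in replicates 1 to 4 of the mature hepatocytes, from 347, 23, 390 and 19 reads. Replicates 2 and 4 thus held nearly no Arntl RNA, and the highest library held 20.2 times the level of the lowest. Only 0.0956% of all genes tested had as large a range of log2 CPM within mature hepatocytes. In hepatoblasts Arntl was at 9.26, 11.6, 16.2 and 16.1 CPM, and in Diff. hepatocytes at 27.8, 36.7, 33.6 and 37.3 CPM. Every Diff. library exceeded every hepatoblast library and every mature library.

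Npas2 (ENSMUSG00000026077, chr1:39193731-39363236, plus strand), which can take the place of CLOCK, followed Arntl at a lower level. It was at 2.13, 0.193, 2.92 and 0.248 CPM in the mature libraries, from 31, 3, 50 and 4 reads, a 15.2-fold range that rests on few reads at its lower end. It was at 0.613, 0.746, 0.648 and 1.13 CPM in hepatoblasts and at 3.46, 2.71, 3.11 and 2.56 CPM in Diff. hepatocytes, whose lowest library lay 2.28-fold above the highest hepatoblast library. Clock (ENSMUSG00000029238, chr5:76209868-76304792, minus strand), the usual partner of ARNTL, was at 99.7, 33.9, 88.5 and 49.6 CPM in mature hepatocytes, with replicates 1 and 3 again high but with a range of only 2.94-fold. Its levels were 23.0, 34.8, 34.5 and 35.9 CPM in hepatoblasts and 42.7, 53.0, 45.5 and 49.2 CPM in Diff. hepatocytes, and these groups did not overlap.

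Dbp (ENSMUSG00000059824, chr7:45705088-45710203, plus strand), a transcription factor of the PAR bZIP family and a direct target of the activator pair, was the mirror image of Arntl. It was at 24.9, 122, 24.9 and 159 CPM in the mature libraries, against 0.838, 1.10, 1.10 and 1.09 CPM in hepatoblasts (26 to 37 reads) and 2.59, 2.32, 3.20 and 3.30 CPM in Diff. hepatocytes. The 3 groups did not overlap, and even the lowest mature library lay 22.5-fold above the highest hepatoblast library and 7.53-fold above the highest Diff. library. The 3′ end of Dbp overlaps the gene Sphk2 on the opposite strand, and the strand setting of the counting is not given in the sources used here. Sphk2 itself was at 126, 63.0, 101 and 73.3 CPM in the mature libraries, so that the pair of libraries high in Dbp was low in Sphk2.

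Tef (ENSMUSG00000022389, chr15:81802421-81826863, plus strand), a PAR bZIP factor related to Dbp, moved with it from a higher floor. It was at 92.6, 282, 102 and 316 CPM in mature hepatocytes, at 25.8, 27.9, 33.5 and 35.1 CPM in hepatoblasts and at 48.9, 56.7, 58.8 and 58.0 CPM in Diff. hepatocytes. Again replicates 2 and 4 were the high mature libraries, and the 3 groups did not overlap.

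The Per genes, whose proteins carry the CRY proteins into the repressing complex, were also high in replicates 2 and 4 of the mature hepatocytes. Per3 (ENSMUSG00000028957, chr4:151003652-151044665, minus strand) was at 5.62, 72.4, 12.0 and 60.3 CPM there, a 12.9-fold range that only 0.202% of all genes tested reached. Per2 (ENSMUSG00000055866, chr1:91415982-91459324, minus strand) was at 16.7, 97.8, 28.2 and 71.0 CPM, and Per1 (ENSMUSG00000020893, chr11:69095217-69109960, plus strand) at 45.5, 75.4, 17.3 and 59.5 CPM. Replicate 1 was lowest in Per2 and Per3 but replicate 3 was lowest in Per1. Per3, which holds the pair of D-boxes printed above, lies within the gene Camta1 on the same strand, whose level was 2.81 to 5.20 CPM over all libraries.

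In the other groups the Per genes stayed within a narrow band. Per2 was at 29.1, 38.8, 42.3 and 51.5 CPM in hepatoblasts and at 24.8, 24.9, 27.1 and 29.7 CPM in Diff. hepatocytes, so that these groups overlapped. Per3 was at 19.7, 22.1 and 22.9 CPM in hepatoblast replicates 2 to 4, with replicate 1 lower at 450 reads, and at 13.0, 13.4, 16.7 and 13.5 CPM in Diff. hepatocytes, and overlapped likewise. Per1 was at 48.6, 31.4, 31.9 and 31.6 CPM in hepatoblasts, with the library rich in erythroid and macrophage markers above the other 3, and at 48.5, 51.2, 49.8 and 53.1 CPM in Diff. hepatocytes. Per1 and Per2 also respond acutely to cell handling and to hormones: 10 immediate early genes such as Fos summed to 1850 to 3105 CPM in the hepatoblast libraries, 218 to 232 CPM in Diff. hepatocytes and 1233 to 2684 CPM in mature hepatocytes, and their part in the Per levels was not tested. Within mature hepatocytes these genes summed to 2684, 1233, 2131 and 2003 CPM, so that they were lowest in the library where Per1 and Per2 were highest.

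The Cry genes, which encode the main repressors of the activator pair, had the narrowest ranges of the 10 genes in mature hepatocytes but not in the other groups. Cry1 (ENSMUSG00000020038, chr10:85131700-85185064, minus strand) was at 15.1, 12.6, 20.8 and 9.87 CPM in mature hepatocytes and sided with Arntl, whereas Cry2 (ENSMUSG00000068742, chr2:92403646-92434043, minus strand) was at 48.4, 64.9, 39.6 and 67.3 CPM and sided with the Per genes. Their ranges were 2.11-fold and 1.70-fold there, and 1.23-fold and 1.25-fold in Diff. hepatocytes, where Per1 covered 1.10-fold. Cry1 was at 9.84, 13.0, 13.3 and 13.5 CPM in hepatoblasts and at 24.0, 29.6, 28.2 and 29.1 CPM in Diff. hepatocytes, and each Diff. library was above every library of the other groups. Cry2 was at 35.0, 41.1, 45.6 and 47.0 CPM in hepatoblasts and at 40.8, 46.4, 47.4 and 51.2 CPM in Diff. hepatocytes, which overlapped. An antisense transcript of low level, D930015M05Rik (0.350 to 1.86 CPM over all libraries), lies within Cry2.

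**Figure D2:**
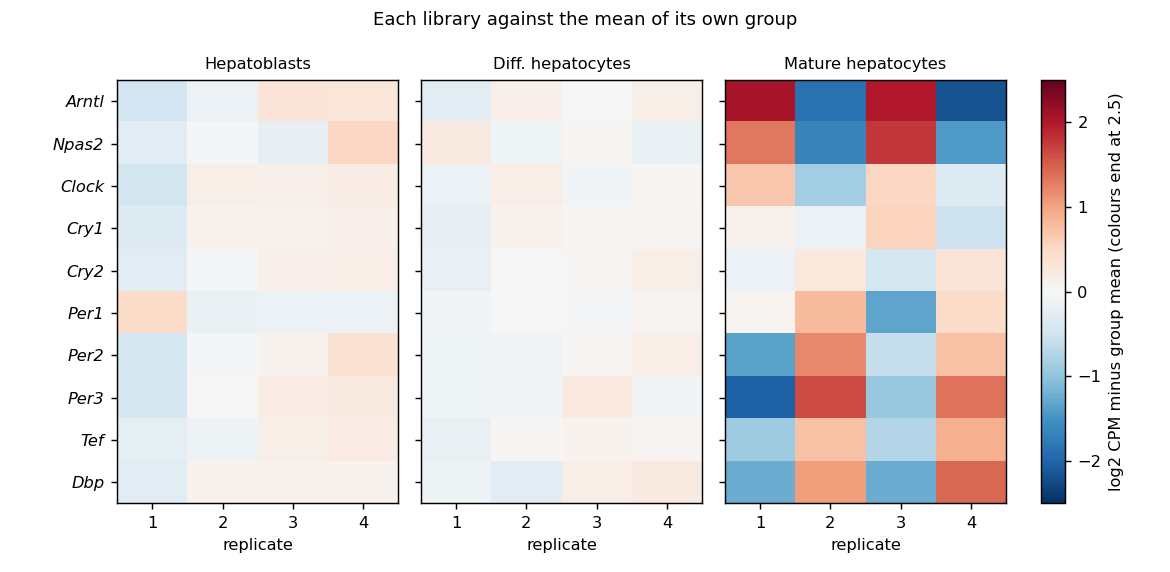
log2 CPM of each clock gene in each library minus the mean of that gene in its own group (red above, blue below, white equal). The mature hepatocytes alternate between replicates 1 and 3 and replicates 2 and 4, in opposite colours for the genes from Arntl to Cry1 and those from Cry2 to Dbp, and the other groups are pale throughout.

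Ratios of reads within a library, which do not depend on how libraries are scaled, showed the same contrast. The ratio of Arntl to Dbp reads was 0.956, 0.0121, 0.913 and 0.0074 in mature replicates 1 to 4, a range of 129-fold, against 10.5 to 14.7 in hepatoblasts and 10.5 to 15.8 in Diff. hepatocytes. The ratio of Arntl to Per3 reads spanned 217-fold in mature hepatocytes, from 0.0195 to 4.23, but 1.24-fold in hepatoblasts and 1.37-fold in Diff. hepatocytes. The ratio of Cry2 to Cry1 was 3.15 to 3.56 in hepatoblasts and 1.57 to 1.76 in Diff. hepatocytes, while mature hepatocytes covered 1.90 to 6.82. Within the hepatoblast or the Diff. libraries these ratios thus ranged at most 1.5-fold. The ratio of Clock to Npas2 ranged 1.67-fold in hepatoblasts, 1.59-fold in Diff. and 6.6-fold in mature hepatocytes. That of Arntl to Nr1d1 ranged 1.66-fold, 1.39-fold and 22-fold in the same order.

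The spread between libraries was summarised as the range of log2 CPM. Its median over the 10 clock genes was 2.33 in mature hepatocytes, 0.635 in hepatoblasts and 0.318 in Diff. hepatocytes, beside 0.614, 0.563 and 0.446 over all genes tested in the same groups. Over genes with a mean of at least 10 CPM the medians were 0.360, 0.355 and 0.244. The clock genes of Diff. hepatocytes therefore varied about as genes in general did. The difference in spread between the groups was not tested. The summed macrophage and endothelial markers were also higher in mature replicates 1 and 3, and their part in the division of the clock genes was not tested. Adult hepatocyte markers did not divide the libraries that way, at 25953, 25798, 24164 and 31955 CPM in replicates 1 to 4. The hour of collection, which is not given for any library, and other differences between the animals cannot be told apart here.

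Per kb of annotated exons, merged over all transcripts of a gene, the order of the genes differed between the groups. In hepatoblasts Per2 (6.90 ± 1.58 CPM per kb, SD, n = 4), Cry2 (6.67 ± 0.853) and Per1 (6.37 ± 1.5) stood highest and did not differ beyond their spread, and Dbp (0.346 ± 0.0437) and Npas2 (0.164 ± 0.0492) lowest. In Diff. hepatocytes Per1 (9.0 ± 0.355 CPM per kb), Cry1 (8.30 ± 0.755), Cry2 (7.35 ± 0.678) and Tef (7.07 ± 0.578) stood highest, each overlapping with the next, and Dbp (0.954 ± 0.158) and Npas2 (0.618 ± 0.0843) again lowest. In mature hepatocytes Dbp (27.7 ± 22.9 CPM per kb) and Tef (25 ± 14.9) stood highest, followed by Per2 (9.13 ± 6.43), Per1 (8.78 ± 4.38) and Cry2 (8.71 ± 2.11). In that last group the spread was so wide that Dbp overlapped with each of the other 4. Dbp thus passed from the ninth place in hepatoblasts and Diff. hepatocytes to the first in mature hepatocytes by its mean per length.

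The groups were then compared with edgeR's quasi-likelihood test over all 12 libraries. A gene was called when its log2 fold change exceeded 1 in either direction and its p, adjusted over all genes tested by the method of Benjamini and Hochberg, was below 0.01. The wide spread of the mature libraries enters the error of every comparison in this fit.

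Cry1 was the clock gene called between Diff. hepatocytes and hepatoblasts in the fit of all groups. It was higher in Diff. hepatocytes than in hepatoblasts by 1.16 on the log2 scale (SE 0.19, adjusted p = 0.000144, edgeR). It was 1 of 10 genes called, where 28.9% of all genes tested were called (14.9% higher and 14% lower). Over the 10 genes the median log2 fold change came to 0.72, beside -0.01 over all genes. Npas2 (1.91, SE 0.59, adjusted p = 0.0132), Dbp (1.46, SE 0.64, adjusted p = 0.0666) and Arntl (1.35, SE 0.66, adjusted p = 0.0931) had fold changes of 2 or more on the linear scale but missed the threshold in edgeR. In a fit of the 8 libraries of these groups alone, all 3 were called, Npas2 at 1.90 (adjusted p = 7.57e-05), Arntl at 1.34 (adjusted p = 0.000129) and Dbp at 1.45 (adjusted p = 0.000127, edgeR), which made 4 genes with Cry1. Npas2 was also called in the fit of all groups without mature replicate 2, 3 or 4 (1.90 each). Cry1 was called as before without Diff. replicate 1 (1.22), the library highest in bile duct and mesenchymal markers, whose part in these values was otherwise not tested. The call of Cry1 was lost when libraries were scaled by their totals alone (0.84, adjusted p = 0.00192) and when the fold threshold was part of the test (adjusted p = 0.265, edgeR). Clock, Npas2, Arntl, Cry1, Dbp and Tef did not overlap between the groups, each being higher in all 4 Diff. libraries, and 28.6% of all genes tested were higher without overlap (28.8% lower without overlap, and no clock gene was among them). The two-sided exact permutation test gave each of these 6 genes p = 0.0286, the smallest that 70 assignments allow, and 0.0714 after adjustment over the 30 tests made.

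The other 4 genes overlapped between Diff. hepatocytes and hepatoblasts. Their log2 fold changes were 0.50 for Per1, -0.60 for Per2, -0.48 for Per3 and 0.14 for Cry2, with adjusted p of 0.185, 0.216, 0.480 and 0.457 in edgeR. A change in Per3 would have had to be large to be seen in the fit of all groups, with a standard error of 0.56 on the log2 scale. That error includes the spread of the mature libraries, where Per3 ranged 12.9-fold, against 1.58-fold in hepatoblasts and 1.29-fold in Diff. hepatocytes. Glucocorticoid response genes, which dexamethasone in the medium would act on, summed to 350 to 437 CPM in the hepatoblast libraries, 1755 to 2119 CPM in Diff. hepatocytes and 4590 to 5365 CPM in mature hepatocytes over 8 genes, and their part in the clock genes was not tested. They include Fkbp5 (86.8 ± 13.6, 270.0 ± 25.0 and 56.2 ± 16.5 CPM in the 3 groups, SD, n = 4) and Klf9 (5.13 ± 1.68, 85.9 ± 7.03 and 197 ± 20.3 CPM).

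Between mature hepatocytes and hepatoblasts the output genes differed most. Dbp was higher by 6.32 on the log2 scale (SE 0.64, adjusted p = 9.55e-07), Tef by 2.70 (SE 0.35, adjusted p = 1.09e-05) and Clock by 1.08 (SE 0.27, adjusted p = 0.00284, edgeR). These were 3 of 10 genes called, all higher, where 44.8% of all genes tested were called (20.1% higher and 24.7% lower). Clock was just past the fold threshold and lost its call without hepatoblast replicate 1 (0.95), without mature replicate 1 (0.83) and without mature replicate 3 (0.92), and when libraries were scaled by their totals alone (0.24). Only Dbp and Tef did not overlap between the groups (30.1% of all genes tested were higher and 35.9% lower without overlap), each with an exact permutation p of 0.0286. Over the 10 genes the median log2 fold change came to 0.64, beside -0.15 over all genes.

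The remaining 7 genes were not called in that comparison, and the mature libraries lay on both sides of the hepatoblasts for 5 of them. Arntl had a log2 fold change of -0.11 (SE 0.67, adjusted p = 0.890), with replicates 1 and 3 above every hepatoblast library and replicates 2 and 4 below every one. Per3 had 0.92 (SE 0.56, adjusted p = 0.153) with the reverse arrangement, replicates 2 and 4 above and replicates 1 and 3 below all hepatoblast libraries. Leaving out mature replicate 2 or 4 turned the sign of Arntl (0.25 and 0.26), and leaving out replicate 2 turned that of Per2 (-0.07 against 0.40). Npas2 (0.81), Per1 (0.46), Per2 (0.40), Cry1 (0.23) and Cry2 (0.39) had positive fold changes that turned negative with library totals alone. The mean of this group therefore describes none of its libraries for Arntl or Per3.

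**Figure D3:**
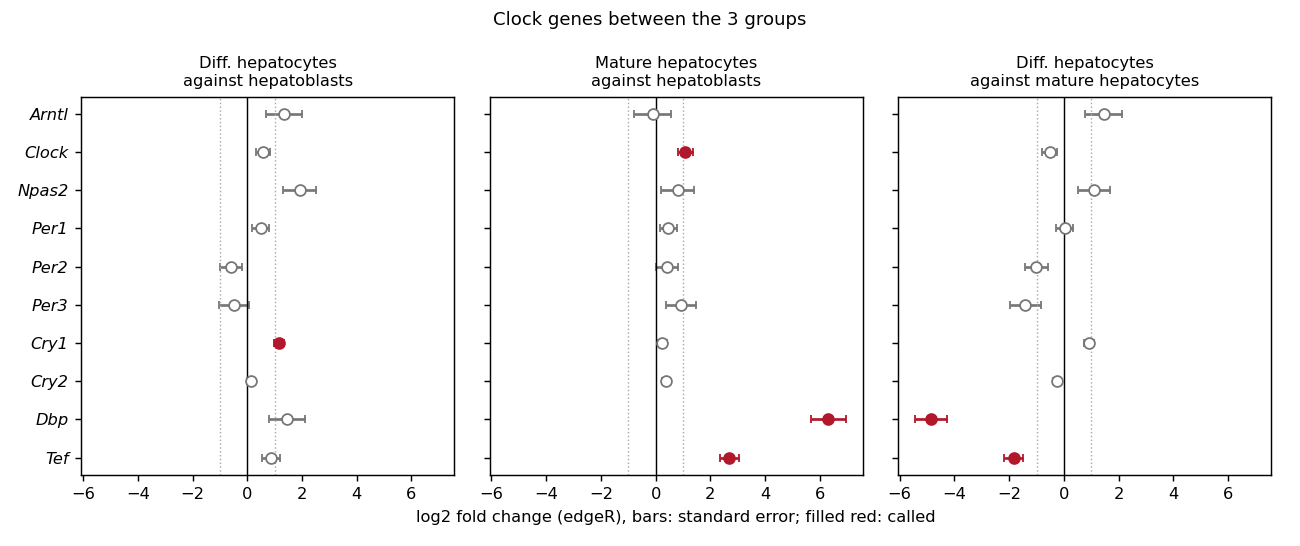
log2 fold change (edgeR) of each clock gene in the 3 comparisons, with bars for the standard error, filled red where called; dotted lines mark a log2 fold change of 1 in either direction. Cry1 was called between Diff. hepatocytes and hepatoblasts, Dbp, Tef and Clock between mature hepatocytes and hepatoblasts, and Dbp and Tef between Diff. and mature hepatocytes.

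Between Diff. and mature hepatocytes the output genes again differed most. Dbp was lower in Diff. hepatocytes (log2 fold change -4.86, SE 0.59, adjusted p = 7.87e-06) and so was Tef (-1.83, SE 0.34, adjusted p = 0.000332, edgeR). These were 2 of 10 genes called, both lower, where 35.8% of all genes tested were called (20.2% higher and 15.6% lower). Cry1 passed the test but not the fold threshold (0.92, SE 0.19, adjusted p = 0.000778) and was higher in all 4 Diff. libraries, and it was called without mature replicate 3 (1.14). Arntl was also higher in all of them (1.46, SE 0.67, adjusted p = 0.0717), although its lowest Diff. library was only 1.17-fold above its highest mature library. Higher without overlap were thus 2 genes and lower without overlap 2 genes (32.4% and 29.2% of all genes tested), each with an exact permutation p of 0.0286. Over the 10 genes the median log2 fold change came to -0.38, beside 0.09 over all genes.

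Per2 (-1.01, SE 0.41, adjusted p = 0.0440) and Per3 (-1.41, SE 0.57, adjusted p = 0.0443) were lower in Diff. hepatocytes by the fitted mean but overlapped with mature hepatocytes, whose replicate 1 lay below all Diff. libraries, as did replicate 3 for Per3. Without replicate 1 both were called, Per2 at -1.31 (adjusted p = 0.00299) and Per3 at -1.77 (adjusted p = 0.00293, edgeR), which made 4 genes. The remaining genes were Npas2 (1.10), Clock (-0.51), Cry2 (-0.25) and Per1 (0.04), none of them called. The comparisons share libraries, so their values for a gene are not independent of each other.

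Beyond the 10 genes, 32 further genes of the pathway were examined, of which 31 passed the filter (the receptor gene Rorb did not). In Diff. hepatocytes against hepatoblasts 10 of the 31 were called higher and 4 lower, beside 14.9% and 14% of all genes tested. Mature hepatocytes against hepatoblasts had 18 higher and 2 lower (20.1% and 24.7% of all genes tested), a division that became 15 and 8 when libraries were scaled by their totals alone and 16 and 6 when the 50 most abundant genes were left out of the totals. In Diff. against mature hepatocytes 2 were higher and 14 lower (20.2% and 15.6% of all genes tested).

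The stabilizing loop feeds back on Arntl through nuclear receptors. Of its 12 genes tested, 5 were called higher and 2 lower in Diff. hepatocytes against hepatoblasts (14.9% and 14% of all genes), with a median log2 fold change of 1.03. In mature hepatocytes against hepatoblasts 9 were higher and 1 lower (20.1% and 24.7% of all genes), with a median of 2.20, and in Diff. against mature hepatocytes 1 was higher and 7 lower (20.2% and 15.6% of all genes), with a median of -1.38. The receptor gene Rora (2.08, SE 0.17, adjusted p = 3.11e-07, edgeR), whose protein activates Arntl, rose in culture. The REV-ERB genes Nr1d1 (1.86, SE 0.38, adjusted p = 0.000929) and Nr1d2 (1.33, SE 0.18, adjusted p = 2.6e-05, edgeR), whose proteins repress it, rose as well. The partners that bind the same element in opposite directions therefore rose together in Diff. hepatocytes.

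Nr1d1 reached its highest levels in mature hepatocytes, at 208, 42.5, 95 and 108 CPM, against 2.06 to 2.72 CPM in the hepatoblast and 7.59 to 10.3 CPM in the Diff. libraries (log2 fold change against hepatoblasts 5.55, SE 0.41, adjusted p = 4.2e-08, edgeR). It did not divide the mature libraries as the 10 genes did, since replicate 1 was highest and replicate 2 lowest, with the others between. Ciart, a repressor of the activator pair, did divide them that way and with a wide range, at 0.617, 26.3, 2.63 and 18.4 CPM, against 1.26 to 2.01 CPM in the hepatoblast and 3.96 to 5.82 CPM in the Diff. libraries. Its promoter, shown because it holds 3 E-boxes where no single promoter of a clock gene above held more than 1, lies at chr3:95882252-95882478 (GRCm38.p6, minus strand), with the E-boxes in capitals.
Ciart: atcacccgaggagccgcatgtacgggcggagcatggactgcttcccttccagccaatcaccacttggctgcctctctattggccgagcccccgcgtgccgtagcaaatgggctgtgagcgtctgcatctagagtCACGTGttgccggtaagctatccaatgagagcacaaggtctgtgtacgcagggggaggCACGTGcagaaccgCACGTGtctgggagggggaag
Hlf, which activates through the D-box, fell in culture (-1.92, SE 0.25, adjusted p = 2.21e-05, edgeR), with 10.9 to 15.8 CPM in the Diff. libraries against 37.4 to 62.1 CPM in the hepatoblast libraries, and was not called in mature hepatocytes against hepatoblasts (0.44, SE 0.24, adjusted p = 0.11). Nfil3, which represses through it, was not called in culture (0.64, SE 0.20, adjusted p = 0.0128) and was higher in mature hepatocytes than in hepatoblasts (1.76, SE 0.20, adjusted p = 2.78e-06, edgeR). Timeless, which works mainly at replication forks in mammals, fell in culture (-2.85, SE 0.16) and was lower in mature hepatocytes (-2.99, SE 0.16). All 10 cell cycle markers were also called lower in both comparisons, beside 14% of all genes tested in Diff. and 24.7% in mature hepatocytes. Bhlhe40 and Bhlhe41, E-box repressors, were higher in mature hepatocytes than in hepatoblasts (2.33 and 6.60), the latter from 0.0597 to 0.193 CPM in hepatoblasts, a level of few reads.

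**Figure D4:**
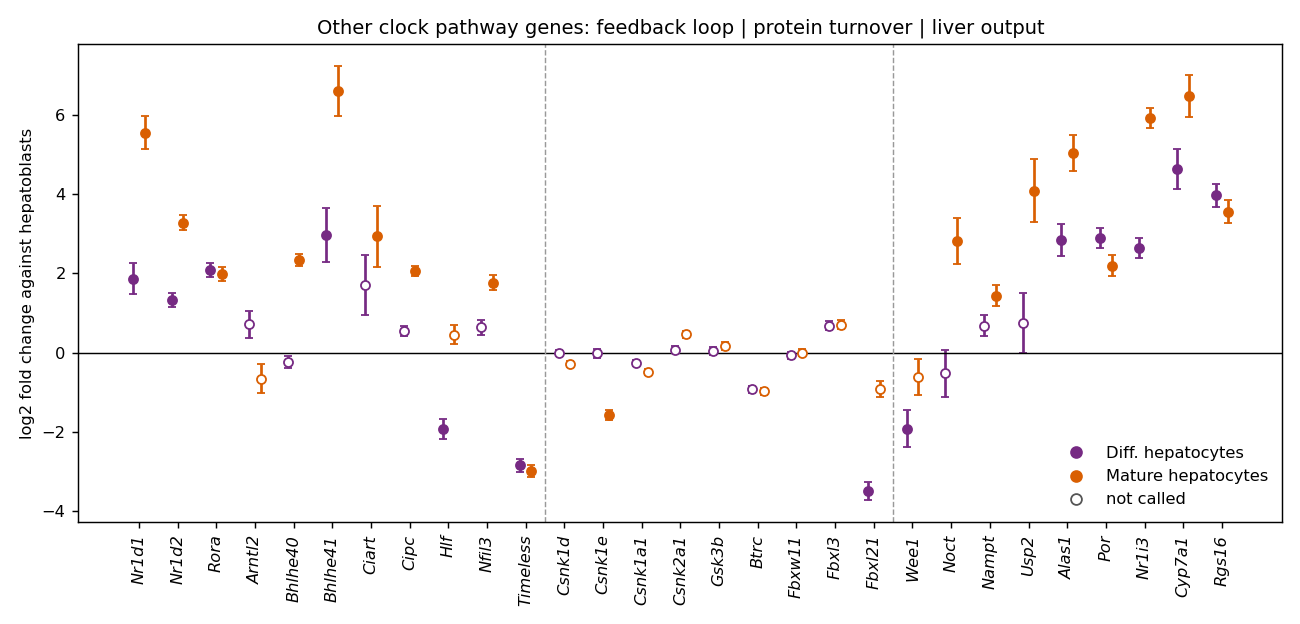
log2 fold change against hepatoblasts (edgeR, bars for the standard error, open circles not called) of further genes of the pathway, in the order feedback loop, protein turnover and liver output; Elovl3, far off the scale, is left out. The turnover genes lie near 0 for both groups apart from Csnk1e and Fbxl21, and most loop and output genes lie above 0 in mature hepatocytes.

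The kinases and ubiquitin ligase subunits that set the lifetime of PER and CRY proteins had few calls. Of 9 genes, 1 was called in each comparison against hepatoblasts (28.9% of all genes in Diff. and 44.8% in mature hepatocytes) and was lower in both, namely Fbxl21 in Diff. hepatocytes (-3.50, SE 0.23, adjusted p = 4.41e-08) and Csnk1e in mature hepatocytes (-1.57, SE 0.13, adjusted p = 8.82e-08, edgeR). Between Diff. and mature hepatocytes 2 were called (35.8% of all genes), Csnk1e higher (1.56) and Fbxl21 lower (-2.57) in Diff. hepatocytes. Others passed the test with changes under the fold threshold, for example Btrc, which was at 38.0 to 44.2 CPM in the hepatoblast libraries, 20.7 to 22.3 CPM in Diff. hepatocytes and 18.6 to 23.6 CPM in mature hepatocytes. Csnk1d was at 99.6 to 114 CPM in the hepatoblast and 104 to 112 CPM in the Diff. libraries. Both comparisons of Diff. hepatocytes had a median near 0 (-0.02 each) and mature against hepatoblasts had -0.28.

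Genes of liver metabolism that are known to follow the clock were mostly higher in mature hepatocytes. Of 10 output genes, 5 were called higher and 1 lower in Diff. hepatocytes against hepatoblasts (14.9% and 14% of all genes), 9 higher and none lower in mature hepatocytes against hepatoblasts (20.1% and 24.7%), and none higher and 6 lower in Diff. against mature hepatocytes (20.2% and 15.6%). Their median log2 fold changes were 1.70, 3.82 and -2.02 in these comparisons. The adult hepatocyte markers moved with them, 6 of 7 called higher in Diff. hepatocytes and 7 of 7 in mature hepatocytes against hepatoblasts, and their part was not tested. Elovl3, a fatty acid elongase, had 3 counts or fewer in each hepatoblast and Diff. library and 692, 77.7, 537 and 141 CPM in the mature libraries, and without it the medians were 2.65, 3.56 and -1.84. Cyp7a1, the rate-limiting enzyme of bile acid synthesis, rose in culture by 4.64 (SE 0.51, adjusted p = 4.5e-06, edgeR) to 43.0 to 49.5 CPM, and was at 38.3, 234, 128 and 249 CPM in mature hepatocytes. Alas1, the rate-limiting enzyme of haem synthesis, rose in culture by 2.84 (SE 0.41, adjusted p = 4.99e-05, edgeR). Wee1, a kinase that holds back mitosis, was the gene called lower in Diff. hepatocytes (-1.93, SE 0.47, adjusted p = 0.00298, edgeR).

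Several output genes divided the mature libraries as Dbp did. Usp2, a deubiquitinase, was at 4.25, 99.0, 10.6 and 111 CPM in mature replicates 1 to 4, against 2.96 to 3.72 CPM in the hepatoblast and 5.03 to 6.53 CPM in the Diff. libraries, so that replicate 1 lay below all Diff. libraries. Noct, a regulator of metabolic transcripts also called nocturnin, was at 19.8, 114, 22.1 and 108 CPM. Wee1 was at 6.51, 28.0, 8.00 and 44.3 CPM. Over the 31 genes, 16 had their highest values in replicates 2 and 4 and 2 in replicates 1 and 3, beside 17.4% and 18.3% of all genes tested. The latter 2 were Elovl3 and Fbxl21.

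**Figure D5:**
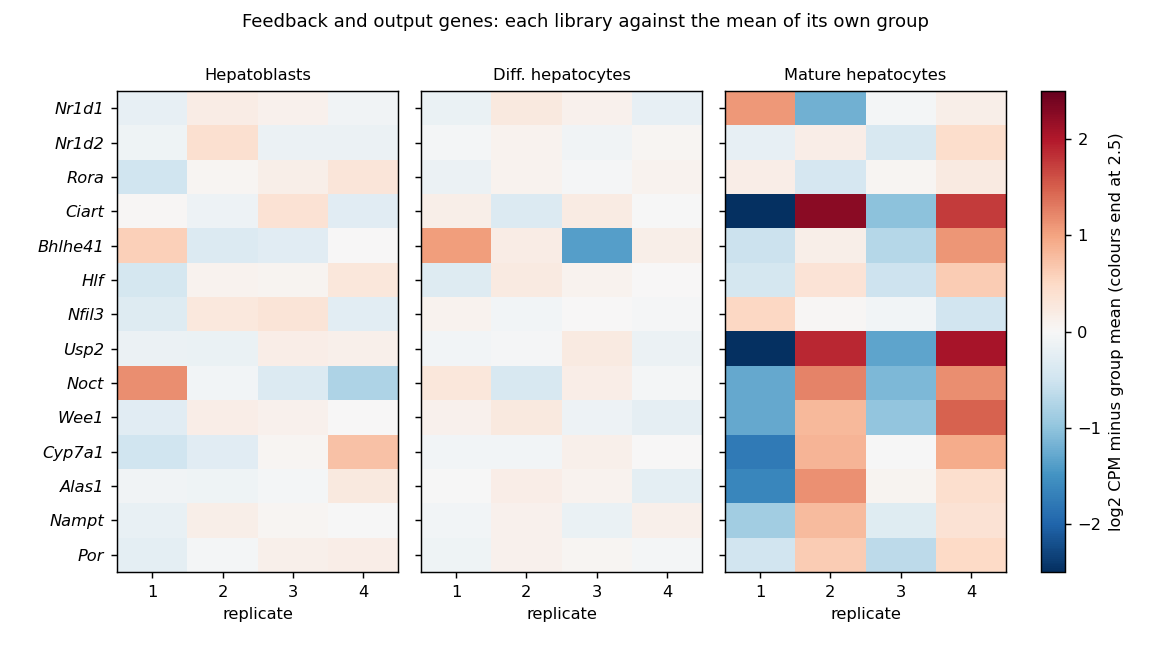
log2 CPM of 14 loop and output genes in each library minus the mean of the gene in its own group (colours end at 2.5). In mature hepatocytes most genes are blue in replicates 1 and 3 and red in replicates 2 and 4, most deeply Ciart and Usp2, and Nr1d1, Nfil3 and Rora are exceptions; Bhlhe41 also varies in Diff. hepatocytes, where it was at 0.222 to 1.56 CPM.

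The genes most like the clock genes over the 12 libraries were sought among 8697 genes with a mean of at least 10 CPM, by the root mean square difference of centred log2 CPM. For Tef the nearest was Kcnk5 (0.22), followed by Fam102a (0.37) and Bri3 (0.38). For Cry1 they were Baiap2 (0.18), Phf21a (0.21) and Gapdh (0.23). Among the 3 nearest were Chka (0.53) and Dhrs9 (0.60) for Arntl and Tubb2a (0.49) and Lgalsl (0.58) for Npas2, and those of Dbp were Mfsd4b1 (0.74), Slc17a2 (0.76) and Gpt (0.78). None of these neighbours was a member of the pathway lists.

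No sequence of 75 bases in any of the 10 genes, the length of a read, occurred unchanged in the transcripts of another gene, read in the direction of transcription. Copies with mismatches and the opposite strand, where Dbp overlaps Sphk2, were not searched. Whether reads were lost to such sequences is therefore not answered.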

How the data were processed

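RNA of 12 libraries was measured by 75 bp single reads of poly(A) RNA. The authors checked reads with FastQC 0.11.2 and Picard 2.10.2, mapped them to GRCm38 with STAR 2.5.2b on Ensembl genes, and deposited raw, unnormalized counts for each gene. The libraries were described as strand-specific, but the strand setting of the counts is not given in the sources used here. Total counts were 19581551 to 25216977 per library, which limits precision mostly for Npas2 and for Arntl where reads were few. Samples were grouped by their labels, and no column of another series was used.

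Gene positions and exon lengths came from GENCODE M21 (53620 of 53715 identifiers matched) and promoters from RefSeq (GRCm38.p6). In R 4.3.3, 17779 genes exceeded 10 counts in at least 1 library and were tested. TMM factors of 0.6772 to 1.442 were applied to library sizes, and edgeR 4.0.16 (limma 3.58.1) was fitted over all 12 libraries with group as its only term. A call required a log2 fold change beyond 1 in either direction with Benjamini-Hochberg adjusted p below 0.01, the thresholds that the authors used with DESeq2 1.22.2. CPM are on TMM-scaled library sizes, log2 CPM used a prior count of 2, and standard errors were derived from the fold change and its F statistic. Two-sided exact permutation tests over 70 assignments of 8 libraries were made for each gene and comparison. The fit was tested on simulated data. Alternatives were other tests (DESeq2 1.42.0, glmTreat), scalings, filters, fits, thresholds, a replicate block and leaving out each library.

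All 10 clock genes are named. Neighbours by likeness were the 3 nearest genes of each member whose group means of log2 CPM span more than 1. Some genes are counted but their values are not reported here. The members, the lists and the tests were chosen with earlier results of these data known. The division of the mature libraries was described after its values were seen.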

Additional observations from a re-analysis of the deposited data

Results flagged for a closer look

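The highest or lowest library of a group was set apart where its distance to the next library made up more of the range of the group than Dixon's critical value for 4 values allows. This held in 10 of 123 groups of 4 libraries examined, and chance gives about 1 in 20, or 6.15.

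Among the 10 clock genes, hepatoblast replicate 1 was set apart in 4. It was below the others in Clock (23.0 CPM against 34.5 to 35.9), Cry1 (9.84 CPM against 13.0 to 13.5) and Dbp (0.838 CPM against 1.09 to 1.10), and above them in Per1 (48.6 CPM against 31.4 to 31.9). This library also had the highest sums of erythroid and macrophage markers in its group, and their part was not tested. Without it, Cry1 was called between Diff. hepatocytes and hepatoblasts as before (1.07 on the log2 scale). In Diff. hepatocytes replicate 3 was above the others in Per3 (16.7 CPM against 13.0 to 13.5).

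Among the other genes of the pathway, Nr1d2 was at 14 CPM in hepatoblast replicate 2 against 9.49 to 9.74 CPM, Alas1 at 35.3 CPM in hepatoblast replicate 4 against 28.0 to 28.9 CPM, and Nr1i3, which encodes the receptor CAR, at 1.09 CPM in the same library against 0.712 to 0.774 CPM. Csnk2a1 was at 61.3 CPM in Diff. replicate 1 against 66.6 to 66.9 CPM, and Elovl3 at 0.130 CPM in the same library against 0.0430 to 0.0493 CPM, a level of 3 counts or fewer. No group of mature hepatocytes was set apart by this measure, since it finds 1 library away from the other 3.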

How the results depend on the processing

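Of the 10 clock genes, 1 was called in Diff. hepatocytes against hepatoblasts. DESeq2's Wald test gave 3, edgeR with the fold threshold inside the test 0, library totals without TMM factors 0, a filter of at least 1 count 2, the 8 libraries alone 4 and an adjusted p under 0.05 without a fold threshold 3; leaving out single libraries gave 1 to 2. In Diff. against mature hepatocytes, with 2 called, the fold threshold inside the test gave 1, the looser threshold 5, and leaving out single libraries 2 to 4, the 4 without mature replicate 1. In mature hepatocytes against hepatoblasts leaving out single libraries gave 2 to 3. The number called in either direction among the 31 further genes stayed within 1.5 times of that reported under every alternative run, while the split by direction moved with the scaling in mature hepatocytes against hepatoblasts, from 18 higher and 2 lower to 15 and 8 with library totals and 16 and 6 without the 50 most abundant genes.

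Replicate numbers were not taken as pairs, since the labels give no shared origin and not every same-numbered pair of deviations correlated above 0.1: the correlations were 0.324, -0.0589, 0.246 and 0.184 for replicates 1 to 4 between hepatoblasts and Diff. hepatocytes, a hint of pairing in 3 of these 4 (-0.352 to 0.242 for unlike numbers), -0.0813 to 0.0865 between Diff. and mature hepatocytes and -0.0309 to 0.0923 between hepatoblasts and mature hepatocytes. With the replicate number as a block the counts of calls in the 3 comparisons were 1, 3 and 2 for the clock genes, as without it, and 14, 19 and 16 for the 31 further genes (14, 20 and 16 without it).

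With library totals the median log2 fold change of all genes was -1 in mature hepatocytes against hepatoblasts, where TMM factors gave -0.15. It was -0.335 in Diff. hepatocytes against hepatoblasts (-0.0127 with TMM factors) and 0.619 in Diff. against mature hepatocytes (0.0919). Signs that turned under library totals were Cry2 in Diff. hepatocytes against hepatoblasts (-0.18), Npas2 (-0.022), Per1 (-0.41), Per2 (-0.42), Cry1 (-0.60) and Cry2 (-0.46) in mature hepatocytes against hepatoblasts, and Clock (0.023) and Cry2 (0.28) in Diff. against mature hepatocytes. Without the 50 most abundant genes in the totals they were Per1 (-0.22), Per2 (-0.26), Cry1 (-0.42) and Cry2 (-0.29), and Clock (0.04) and Cry2 (0.32), in the same comparisons. None of these values was called with TMM factors. Leaving out single libraries turned Per1 in Diff. against mature hepatocytes (range -0.251 to 0.309, below 0 without mature replicate 1 or 3) and, in mature hepatocytes against hepatoblasts, Arntl (-0.643 to 0.261, above 0 without mature replicate 2 or 4), Per2 (-0.07 to 0.689, below 0 without mature replicate 2) and Cry1 (-0.001 to 0.373, below 0 without mature replicate 3). The causes were not tested. Npas2 fell under the filter of 10 counts in every sample and had no value there.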

Other observations

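The hour of collection is not given in the sources used here, so a fold change of a clock gene between groups cannot be told apart from a difference in hour. With 4 libraries a group, the mean of a gene that takes opposite levels in the mature libraries, such as Arntl or Per3, depends on how many libraries fall on each side. Depth limited Npas2, which had 3 and 4 reads in mature replicates 2 and 4. Levels are of RNA and say nothing of the proteins.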
